A study of Mus musculus with 9 samples.

Results

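Adult dental epithelial cells marked by the stem cell factor Sox2 were compared with mouse embryonic stem cells (mESC), the pluripotent cell type whose identity also depends on Sox2. The comparison used 6 of the 9 microarrays of the series, 3 of each kind, and every transcript cluster to which the deposited annotation gave a gene symbol, which was 39601 of 65956 clusters. A transcript cluster is a set of array probes that read the RNA of a locus, and 36559 of the named clusters carried exactly 1 symbol. The adult samples were living, GFP-positive and AAD-negative cells sorted by flow cytometry from the labial cervical loops of Sox2-GFP+ mice at postnatal day 30, and each sample combined several mice. All samples are labelled as biological replicates. The mESC were purchased, and neither their strain, genotype, culture medium nor separate culture of the 3 samples is given in the sources used here, so a p-value here speaks of the spread among these arrays, part or all of which can be technical. The Sox2-GFP allele is not described further. Sorted cells of the E14.5 incisor epithelium of Sox2-GFP+ embryos (embryo, 3 pooled samples) are the other group of the series. Their levels are quoted only where they place a value. Their spread, however, enters every standard error and p-value of the comparison, because the model was fitted to all 9 arrays together.

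The mouse incisor grows throughout life. Stem cells in its labial cervical loop, an epithelial pocket at the root end of the tooth, renew transit-amplifying cells that become ameloblasts, which secrete the enamel matrix and then take up most of it again as the mineral hardens. In pluripotent cells Sox2 acts together with the POU factor encoded by Pou5f1 and with Nanog to hold the undifferentiated state. In the incisor it marks stem cells within an epithelium that is built on keratins and cell junctions.

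Values are log2 signals as deposited, so that a difference of 1 is a doubling of signal, and "rose" and "fell" refer to adult against mESC. A gene was called when its adjusted p in limma, a linear model with a variance shared across genes, was under 0.05 and its difference was at least 1. Differences are written ± SE of that fit, and list counts refer to the measured genes with a cluster of their own. The negative-control probe sets of the arrays had a median log2 signal of 4.81 and a 95th percentile of 9.27. A group mean under that median has no reliable level, and a difference resting on it understates the change.

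Higher in the adult cells were genes of surface epithelium, enamel formation and several signalling pathways, together with markers of macrophages (18 of 19) and bone (10 of 14), and lower were the pluripotency network, germline genes and genes of replication, mitosis, ribosome assembly and glycolysis, as the list counts below show. Of the named clusters, 2721 rose (6.87%) and 4073 fell (10.3%), while the median over all of them was -0.07. Of the 6794 called clusters, 6783 had all 3 adult arrays on the same side of all 3 mESC arrays, which held for 47.5% of all named clusters. Called differences of at least 4 on the log2 scale numbered 259 upward and 199 downward, and those of at least 8 numbered 16 and 20. In 432 of the clusters that rose the mESC mean was under the negative-control median, as was the adult mean in 573 of those that fell.

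**Figure D1:**
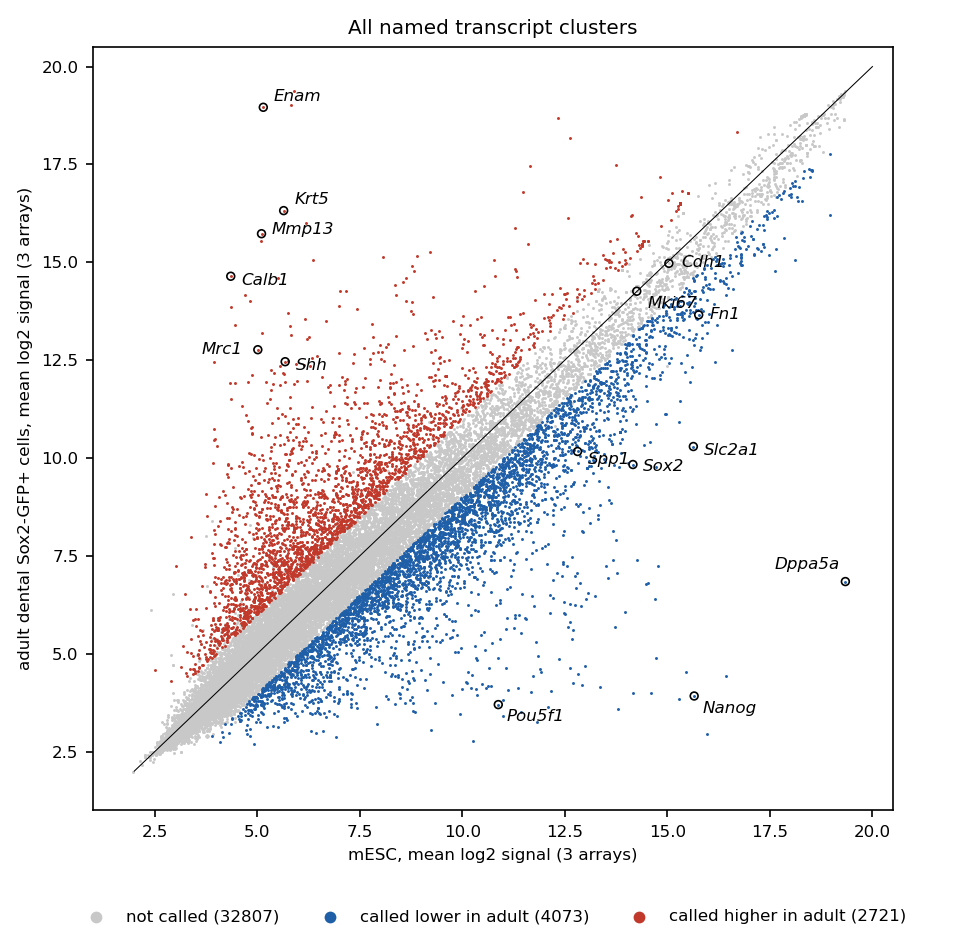
Mean log2 signal of the 3 adult arrays (vertical axis) against that of the 3 mESC arrays (horizontal axis) for all 39601 named transcript clusters, with the diagonal drawn as a line. Red points (2721) were called higher in adult cells, blue points (4073) lower and grey points were not called, and circles mark genes described in the text, from Enam far above the diagonal to Nanog and Dppa5a far below it.

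Arrays of the same group correlated at 0.990 to 0.995 (adult) and 0.995 to 0.996 (mESC) over the named clusters, and arrays of different groups at 0.931 to 0.942. The first principal component of the 6 arrays held 87.8% of their variance. Adult array 1 lay farther from its group mean (SD 0.264) than the other arrays of the series (0.151 to 0.202). It was the highest adult array for 21 of 21 mesenchyme markers and 10 of 11 enamel matrix genes, and the lowest for Sox2 and several keratins. Leaving it out moved the difference of 18 of the 263 called genes named here by over 1.5 times in linear signal, with no call lost among these 18, and each is given with and without it. The column names of a second deposited table hold digit strings, which were read here as dates. The sources do not say which step, if any, these dates belong to. By them 2 adult arrays fall on the first of 2 days and 1 adult array and all 3 mESC arrays on the second. Part of any effect of that day would lie along the comparison.

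Sox2 itself lay above the negative-control median in both cell types and was lower in the adult cells. Its log2 signal was 8.75, 10.49 and 10.26 in the adult arrays, 14.31, 14.18 and 13.99 in mESC and 11.86 on average in the embryo. All adult arrays lay below all mESC arrays, with the lowest value in adult array 1. That value was under the 95th percentile of the negative controls (9.27), and the other adult values were above it. The difference was -4.33 ± 0.42 (adjusted p = 0.000127 in limma), and from the embryo the adult cells differed by -2.03 ± 0.42 (adjusted p = 0.015), in a comparison that called 6.42% of the named clusters, 2.83% higher and 3.59% lower in adult cells. As these are bulk samples, fewer cells that carry an RNA and less of that RNA per cell cannot be told apart, here or in any result below.

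Keratins of basal, stratified epithelium and genes of desmosomes were higher in the adult cells. Of 38 measured genes of epithelial keratins and junctions 15 rose and 8 fell (median 0.58). Krt5, the basal keratin that pairs with Krt14, had signals of 15.69, 16.73 and 16.54 in adult cells against 5.44, 5.79 and 5.70 in mESC. Krt14 had 14.82, 15.18 and 15.17 against 5.83, 6.45 and 6.77. For both genes the 3 adult arrays lay far above every mESC array, with differences of 10.68 ± 0.36 (adjusted p = 6.21e-07) and 8.71 ± 0.23 (adjusted p = 1.77e-07), and neither was called against the embryo (0.55 ± 0.36 and -0.35 ± 0.23). Krt17 rose by 6.89 ± 0.25 and Krt15, a keratin of epithelial stem cells, by 6.01 ± 0.74 (6.75 without adult array 1). Among desmosomal genes, which rivet neighbouring cells together, Dsc3 rose by 9.45 ± 0.31, Dsp by 5.70 ± 0.32, Perp by 5.09 ± 0.18 and Pkp1 by 4.36 ± 0.41, while Pkp2 fell by 4.82 (SE 0.17).

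The genes of this list that fell were mostly of tight junctions. Cldn4, a claudin of tight junctions, was at 5.97, 6.34 and 6.86 in adult cells and 12.98, 13.08 and 13.00 in mESC, a difference of -6.63 ± 0.20, and Cldn6 and Cldn7 also fell (-2.40 ± 0.21 and -2.63 ± 0.12). Cldn1, the claudin of stratified epithelia, went the other way, from 4.45 in mESC to 11.92 in adult cells (7.47 ± 0.22). Cldn10 rose by 2.55 ± 0.42, the scaffold gene Tjp3 fell (-2.57 ± 0.17), and Tjp1 was at 10.27 and 10.58. Cdh1, the adhesion molecule E-cadherin, was bright in both cell types (mean 14.97 ± 0.42 in adult cells and 15.04 ± 0.12 in mESC, SD, n = 3 each, difference -0.06 ± 0.28, adjusted p = 0.892 in limma). Epcam, another surface protein of both, missed the threshold at -0.86 ± 0.24 and passed it without adult array 2. The cadherin genes Cdh2 and Cdh3 rose by 4.07 ± 0.76 and 2.89 ± 0.17, Cdh2 with 12.92, 10.70 and 10.71 in the adult arrays, highest in array 1 and with a difference of 3.34 without it.

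Genes of adhesion to the basement membrane were also higher. Of 26 measured adhesion genes 14 rose and 1 fell (median 1.07). Lama3, a chain of the laminin that anchors epithelia, rose by 2.47 ± 0.17, and Itgb4 and Col17a1 of the hemidesmosome, which binds that laminin, by 4.27 ± 0.14 and 2.54 ± 0.13. Itgb6, an integrin chain of ameloblasts, rose by 5.58 ± 0.15, Itga2 by 4.87 ± 0.45 and the hyaluronan receptor gene Cd44 by 6.14 ± 0.31. The gene that fell was Nid2, a basement membrane linker, at 7.69, 6.94 and 6.55 against 12.27, 12.38 and 12.26 (-5.24 ± 0.33). Itgb1, the common integrin chain, was at 12.05 and 11.56.

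Transcription factors of dental and surface epithelium rose in 19 of 34 measured cases and fell in 3 (median 1.49). Trp63, the regulator of stratified epithelia, had 10.29, 11.13 and 10.90 in adult cells and 4.80, 4.92 and 4.83 in mESC. Msx2, a homeobox gene of tooth development, had 9.47, 11.18 and 11.18 against 4.53, 5.13 and 4.99. Dlx3, a homeobox gene needed for enamel, had 12.43, 11.76 and 12.17 against 4.73, 4.81 and 5.07. None of these adult arrays reached down to an mESC array, and the differences were 5.92 ± 0.26, 5.73 ± 0.61 and 7.25 ± 0.48 (largest adjusted p = 0.000199 in limma). Isl1 rose by 6.92 ± 0.28, Runx1 by 5.44 ± 0.29, Dlx5 by 4.91 ± 0.31, Bcl11b by 4.16 ± 0.22 and Satb1 by 4.05 ± 0.35. Dlx3, Dlx5, Satb1 and Barx2 were also higher than in the embryo, Isl1 was lower (-1.08 ± 0.28), and Trp63, Msx2, Runx1 and Bcl11b were not called between the dental ages. The genes that fell were Elf3, Tfap2c and Lef1 (-2.32 ± 0.16, -2.20 ± 0.16 and -1.72 ± 0.41), the last a mediator of Wnt signals. Among markers of incisor stem cells 7 of 16 rose, with Sox2 the only gene called lower. Bmi1, a polycomb protein used as a marker of those cells, rose by 2.85 ± 0.17, Igfbp5 by 9.83 ± 0.38 and Pcp4 by 4.65 ± 0.63 (3.83 without adult array 1). Lgr5, a Wnt-related stem cell marker of other epithelia, lay under the negative-control median in both (3.92 and 3.91).

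**Figure D2:**
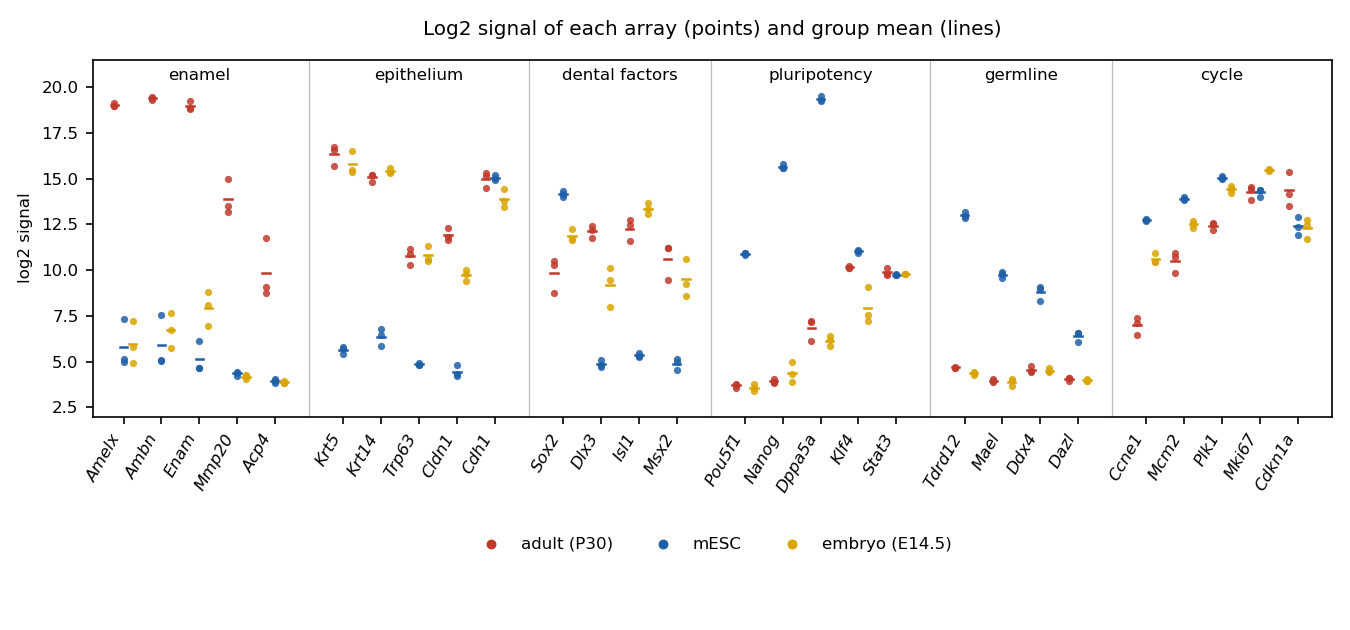
Log2 signal of every array (points) and group mean (short lines) for named genes of 6 groups in adult cells (red), mESC (blue) and embryo (yellow). The enamel, keratin and dental factor genes other than Sox2 were high in adult cells and low in mESC, Nanog, Pou5f1, Dppa5a and the germline genes were the reverse, and the arrays of Cdh1 and Mki67 overlapped.

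Enamel genes gave the largest increases of all named clusters. Enam, which encodes enamelin, had log2 signals of 19.22, 18.84 and 18.82 in adult cells against 4.67, 6.13 and 4.64 in mESC. Ambn, which encodes ameloblastin, had 19.47, 19.38 and 19.27 against 5.06, 7.54 and 5.07. Amelx, the gene of amelogenin, the main enamel protein, had 19.12, 18.98 and 18.96 against 5.12, 7.32 and 5.0. The adult arrays lay close together for each gene, and the highest mESC value of all 3 genes was in mESC array 2. The differences were 13.81 ± 0.54, 13.48 ± 0.72 and 13.21 ± 0.73 (largest adjusted p = 7.03e-06 in limma), the 3 largest increases of the named genes, with 14.31 for Ambn and 13.96 for Amelx without mESC array 2. All 3 were also higher than in the embryo, by 11.02 ± 0.54, 12.66 ± 0.72 and 13.04 ± 0.73. Mmp20, the protease that trims these proteins, rose by 9.51 ± 0.40, and Acp4, Fam20a and Fam20c, which act on secreted matrix, rose by 5.93 ± 0.69, 3.69 ± 0.55 and 2.19 ± 0.36. In all, 7 of 11 enamel matrix genes rose and 0 fell (median 4.27).

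The 4 enamel genes that were not called were Amtn, Odam, Klk4 and Odaph, which are known from the later maturation stage. Amtn had 14.01, 4.39 and 5.64 in the adult arrays and 3.76, 3.69 and 3.79 in mESC. Odam had 9.99, 5.66 and 5.36 against 4.65, 4.38 and 4.59, and Klk4 5.99, 3.87 and 4.04 against 3.79, 3.80 and 3.71. The high value was in adult array 1 for all 3 genes, and adult arrays 2 and 3 lay much closer to mESC, although Amtn was called without array 1 (difference 1.27). Odaph was at 3.59 in adult cells and 3.62 in mESC, under the negative-control median in both. Acp4 (11.77, 8.77 and 9.05), Mmp20 (14.95, 13.16 and 13.49) and Fam20a (9.26, 7.31 and 6.81) were highest in the same array but were raised in all 3. Without it the differences of Acp4 and Fam20a were 4.98 and 2.96. Without adult array 1 the median of the enamel genes was 2.96, with the day read from the column names as a block 3.24, and on the second day alone 2.71.

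The windows before the start sites of Amelx and Ambn are shown because their base composition differs from that of most genes called in this comparison. They are the 250 bases upstream of the start in RefSeq on mouse build GRCm38.p6, at chrX:169187210-169187459 on the minus strand and chr5:88455741-88455990 on the plus strand. Capitals mark the dinucleotide CG and the motif TATAAA.
Amelx: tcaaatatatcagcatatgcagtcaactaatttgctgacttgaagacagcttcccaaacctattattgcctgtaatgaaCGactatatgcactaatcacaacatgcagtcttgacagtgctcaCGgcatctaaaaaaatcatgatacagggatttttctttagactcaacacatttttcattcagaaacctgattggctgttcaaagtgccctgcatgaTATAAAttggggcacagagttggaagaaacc
Ambn: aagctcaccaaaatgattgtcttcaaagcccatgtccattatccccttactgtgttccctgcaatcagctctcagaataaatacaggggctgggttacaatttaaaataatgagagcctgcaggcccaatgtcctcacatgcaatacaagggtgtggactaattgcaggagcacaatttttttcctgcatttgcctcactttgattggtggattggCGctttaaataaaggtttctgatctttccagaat
The Amelx window held 2 CG and the Ambn window 1, and the motif TATAAA was present in the former. Over both strands 12.4% of all 32851 RefSeq windows held TATAAA, against 42.9% of the 7 windows of the called enamel genes. A window was counted as CpG-rich when its observed over expected CG ratio was at least 0.6 and its GC content at least 50%. This held for 51.4% of windows of genes that rose, 60.9% of those that fell, 36.3% of those not called, and 14.3% of the 7 enamel windows. Symbols matched 1563 of 2535 genes that rose and 1900 of 3741 that fell.

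Ion handling genes of enamel formation and further genes behind inherited enamel defects were higher as well. Calb1, the calcium buffer calbindin, went from 4.43, 4.45 and 4.18 in mESC to 15.14, 14.11 and 14.68 in adult cells, 10.29 ± 0.24, with 4.21 in the embryo. The bicarbonate transporter genes Slc4a4 and Slc4a2 rose by 4.40 ± 0.42 and 2.59 ± 0.15, the phosphate transporter gene Slc34a2 by 5.31 ± 0.87, and Slc12a2, which moves sodium, potassium and chloride, by 3.39 ± 0.60. Slc34a2 was at 7.22, 10.77 and 10.76 in the adult arrays, lowest in array 1, and its difference was 6.49, 4.72 and 4.72 without array 1, 2 and 3. That of Slc12a2 was 4.04 without array 1. The calcium pump gene Atp2b1 rose by 2.54 ± 0.37 and the calcium sensor genes Stim1 and Stim2 by 1.77 ± 0.23 and 2.16 ± 0.15. Together 11 of 23 ion genes rose and 0 fell (median 0.79), as did 8 and 0 of 17 further enamel defect genes (median 0.86), among them Sp6 (2.56 ± 0.15) and Relt (1.56 ± 0.25). Fam83h, Wdr72 and Slc24a4 were not called, Fam83h passing without adult array 1 (adult means 7.03, 4.0 and 4.35, mESC means 6.17, 3.91 and 3.69).

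Other genes among the 15 largest increases were Mmp13, Sparcl1, Wif1, Vwde, Adgrf4 and Fads2b. Mmp13, a collagenase, was at 15.70, 16.20 and 15.29 in adult cells, 4.93, 5.03 and 5.35 in mESC and 4.48 in the embryo (10.63 ± 0.27). Sparcl1, a secreted matrix-associated protein, was at 13.86, 16.59 and 16.17 against 4.67, 5.56 and 5.07 (10.44 ± 1.11), with adult array 1 the lowest and a difference of 11.28 without it. Adgrf4, an adhesion G protein-coupled receptor, rose by 8.92 ± 0.75, Vwde by 9.10 ± 0.38 and Fads2b by 8.50 ± 0.55. All of these adult arrays lay above all mESC arrays.

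The pluripotency network was lower in the adult cells almost throughout. Of 42 measured genes 36 fell and 0 rose (median -5.12). Nanog had 3.87, 3.82 and 4.07 in adult cells and 15.59, 15.79 and 15.58 in mESC. Pou5f1 had 3.75, 3.56 and 3.79 against 10.91, 10.81 and 10.91. Dppa5a, an RNA-binding protein of pluripotent cells, had 6.15, 7.17 and 7.21 against 19.22, 19.30 and 19.50. The groups were far apart for all 3 genes, with differences of -11.73 ± 0.24, -7.18 ± 0.11 and -12.50 ± 0.28 (largest adjusted p = 8.22e-08 in limma), and the adult means of Nanog and Pou5f1 lay under the negative-control median. Tdgf1, a co-receptor for Nodal, had a difference of -10.61 ± 0.11 and its pseudogene Tdgf1-ps1 one of -13.01 ± 0.09, though probes may not tell these near copies apart. Fbxo15, a ubiquitin ligase subunit, and the nuclear receptor gene Nr0b1 had differences of -8.47 ± 0.13 and -8.42 ± 0.19, and Utf1, Dppa3 and Dppa2 of -7.64 ± 0.11, -7.59 ± 0.12 and -7.40 ± 0.17. Sall4 and Fgf4 had differences of -6.46 ± 0.10 and -6.52 ± 0.14, and Esrrb, an estrogen-related receptor of naive cells, -3.28 ± 0.15. Tfcp2l1, whose cluster also carries Gm23497, had a difference of -5.54 ± 0.27.

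The genes of this list that did not pass were Klf4, Klf2, Tbx3, Gbx2, Zfp281 and Stat3. Klf4, a zinc finger factor of naive cells and of surface epithelia alike, had 10.22, 10.13 and 10.13 in adult cells and 11.05, 11.08 and 10.93 in mESC, a difference of -0.86 ± 0.42 (adjusted p = 0.152 in limma). All of its adult arrays lay below all of its mESC arrays, and the authors' analysis of variance gave an adjusted p of 0.00419. The limma SE also holds the spread of the embryo arrays. By either test the difference of Klf4 was below the size required. Klf2 had an adjusted p of 0.000923 but a difference of -0.83 ± 0.12, below the size required. Stat3, which carries the LIF signal in mESC, was at 10.13, 9.78 and 9.75 and 9.71, 9.73 and 9.78 (0.15 ± 0.10). Klf5 fell by 1.11 (SE 0.24), a call lost without adult array 1 or mESC array 1, and Tbx3 (-0.88 ± 0.25) passed without adult array 1. Sox2 thus stood among 36 genes that fell, with an adult mean of 9.83.

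Factors of early lineages were low in both cell types. Of 19 such genes 12 had an mESC mean and 16 an adult mean under the negative-control median, 4 fell and 1 rose. Otx2 and Eomes had differences of -1.63 ± 0.13 and -1.32 ± 0.10, from mESC means of 5.78 and 4.94. Sox17 and Gata4, markers of endoderm, were at 3.43 and 3.81 in mESC. The gene that rose was Krt8 (1.31 ± 0.41, adjusted p = 0.0372 in limma), a call lost without adult array 2 or 3 or mESC array 1 or 2.

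Germline and meiosis genes fell in 15 of 22 measured cases and rose in 0 (median -2.21). Tdrd12, which acts in the piRNA pathway that silences transposons, had 4.68, 4.71 and 4.66 in adult cells and 12.85, 12.96 and 13.17 in mESC. Mael, of the same pathway, had 4.03, 3.95 and 3.87 against 9.56, 9.78 and 9.88. Ddx4, the germ cell helicase also called vasa, had 4.77, 4.45 and 4.48 against 8.95, 8.32 and 9.07. Every adult array of these genes lay under the negative-control median, and the differences were -8.31 ± 0.09, -5.79 ± 0.12 and -4.21 ± 0.19 (largest adjusted p = 2.74e-06 in limma). The meiotic chromosome genes Hormad1 and Sycp3 had differences of -6.26 ± 0.20 and -5.46 ± 0.14, the X-linked homeobox gene Rhox5 -6.62 ± 0.17, Tex19.1 -4.54 ± 0.08 and Dazl -2.34 ± 0.13. Cyct, the testis form of cytochrome c, and Trh, the gene of thyrotropin-releasing hormone, were among the 15 largest decreases (-9.21 ± 0.20 and -8.70 ± 0.06), as were Pla2g1b, a secreted phospholipase (-10.22 ± 0.13), Ina, a neuronal intermediate filament (-8.55 ± 0.11), AU018091 (-8.11 ± 0.16) and Zfp640 (-7.72 ± 0.18 for the brighter of its 2 clusters).

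The upstream windows of Mael and Tdrd12 are shown because they belong to 2 called germline genes that differ in CpG content. They lie at chr1:166238745-166238994 and chr7:35537716-35537965 on GRCm38.p6, both on the minus strand, from RefSeq and with capitals as above.
Mael: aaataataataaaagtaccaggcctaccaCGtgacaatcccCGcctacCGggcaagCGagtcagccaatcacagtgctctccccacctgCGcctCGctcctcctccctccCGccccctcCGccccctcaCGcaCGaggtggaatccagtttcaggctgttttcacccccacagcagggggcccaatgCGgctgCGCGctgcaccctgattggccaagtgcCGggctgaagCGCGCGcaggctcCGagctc
Tdrd12: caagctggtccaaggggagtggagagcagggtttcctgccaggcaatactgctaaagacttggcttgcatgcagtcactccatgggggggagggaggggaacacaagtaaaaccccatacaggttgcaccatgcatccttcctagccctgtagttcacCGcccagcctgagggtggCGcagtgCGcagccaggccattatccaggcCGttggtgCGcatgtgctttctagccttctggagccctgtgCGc
The Mael window held 18 CG and met the CpG-rich criterion, while the Tdrd12 window held 6 and did not. Of the 17 windows of called germline genes 76.5% were CpG-rich, as were 70.8% of 24 windows of called replication genes, 33.3% of 27 windows of called pluripotency genes and none of 16 windows of called macrophage genes. The share was 60.9% over all 2294 windows of genes called lower and 34.9% over the 126 windows of those lower by at least 4. These shares describe the sequence only, since methylation was not measured.

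Enzymes that write, keep and remove DNA methylation moved in both directions. The de novo methyltransferase gene Dnmt3b had 5.74, 5.82 and 6.14 in adult cells and 11.41, 11.63 and 11.58 in mESC (-5.64 ± 0.11), and its cofactor Dnmt3l fell by 2.34 (SE 0.13). Dnmt3a, the other de novo enzyme, was at 9.12 and 9.43. Tet1, which oxidises methylcytosine, went from 13.59, 13.59 and 12.89 in mESC to 8.90, 8.94 and 8.57 in adult cells (-4.55 ± 0.26), while its relative Tet3 went from 6.3, 5.93 and 6.17 to 9.40, 10.08 and 10.02 (3.70 ± 0.27). The maintenance genes Uhrf1 and Dnmt1 had differences of -2.19 ± 0.17 and -1.54 ± 0.10, and Mbd2, a reader of the mark, rose by 2.66 ± 0.18. In all 2 of 13 genes rose and 6 fell (median -0.67).

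Subunits of chromatin complexes mostly fell. Of 25 polycomb and remodelling genes 14 fell and 4 rose (median -1.12). Phc1, a polycomb subunit of pluripotent cells, had 7.40, 7.56 and 7.48 in adult cells and 12.63, 12.70 and 12.66 in mESC (-5.18 ± 0.07). Mtf2, Jarid2, Eed and Cbx7, also of the polycomb complexes, had differences of -3.42 ± 0.19, -2.72 ± 0.07, -2.64 ± 0.14 and -2.74 ± 0.18, and Ezh2, their methyltransferase, -1.47 ± 0.14. The genes that rose were Smarca2 and Smarcc2, subunits of the BAF remodeller (3.11 ± 0.11 and 2.99 ± 0.11), Arid1b of the same complex (1.40 ± 0.15) and Bmi1. Smarcc1, the alternative of Smarcc2, fell by 1.12 (SE 0.16), a call lost without adult array 1, and Smarca4, the alternative of Smarca2, was at 10.58 and 11.27.

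MicroRNA loci are read on these arrays through long transcripts and hairpins rather than mature microRNAs. The locus best known from mouse pluripotent cells, carried by 1 cluster with the symbols D7Ertd143e, Mir291a, Mir292, Mir293, Mir294, Mir295 and Mir291b, had 4.2, 4.11 and 4.2 in adult cells and 6.77, 6.28 and 5.96 in mESC. All 3 mESC arrays lay above all adult arrays, with a difference of -2.17 ± 0.19 (adjusted p = 7.44e-05 in limma), and the adult level was under the negative-control median. The neighbouring cluster of Mir290a and Mir290 differed by -0.38 ± 0.17 (adjusted p = 0.118). Mature products of this locus and of the related Mir302 genes are printed from RefSeq on GRCm38.p6 to show that they share a seed, the bases 2 to 8 in capitals.
mmu-miR-291a-3p: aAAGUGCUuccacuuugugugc
mmu-miR-294-3p: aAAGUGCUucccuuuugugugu
mmu-miR-295-3p: aAAGUGCUacuacuuuugagucu
mmu-miR-291b-3p: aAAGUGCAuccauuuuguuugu
mmu-miR-302b-3p: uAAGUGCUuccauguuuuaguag
mmu-miR-302d-3p: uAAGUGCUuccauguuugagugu
mmu-miR-205-5p: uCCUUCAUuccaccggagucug
mmu-miR-363-3p: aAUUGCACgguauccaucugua
The first 3 and both Mir302 products have the seed AAGUGCU, and miR-291b-3p has AAGUGCA. They lie at chr7:3218968-3218989 to chr7:3220815-3220837 on the plus strand and, for Mir302b and Mir302d, at chr3:127545275-127545297 and chr3:127545665-127545687, also on the plus strand. Mir302b was at 3.16 and 3.47 and Mir302d at 4.50 and 5.09, and neither was called. The mature miR-205-5p, an epithelial microRNA, lies at chr1:193507503-193507524 on the minus strand. Its gene Mir205 shares a longer cluster with 4631405K08Rik, and that cluster went from 4.99, 4.86 and 4.43 in mESC to 7.48, 9.04 and 9.23 in adult cells (3.82 ± 0.46), with a seed unlike the others. Mir363, whose mature miR-363-3p lies at chrX:52741697-52741718 on the minus strand, differed by -2.23 ± 0.25 and Mirlet7a-1 by -1.12 ± 0.19, the latter not called without mESC array 1. In all 2 of 24 microRNA genes fell (8.3%, against 10.3% of all named clusters) and 0 rose (against 6.87%). Of the 24, 20 adult means and 18 mESC means lay under the negative-control median, which limits what the calls can show.

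In a list built around Lin28 and other genes of the embryonic state, most of them for RNA-binding proteins, 5 of 6 measured genes fell and 0 rose. Hmga2 went the other way in the authors' deposited comparison, with a signed linear fold of 2.01. Lin28a and Lin28b, which block maturation of let-7 microRNAs, had differences of -1.18 ± 0.10 and -1.81 ± 0.07, from mESC means of 5.54 and 5.84. Trim71 had 4.26, 4.41 and 4.14 in adult cells and 9.65, 10.17 and 8.74 in mESC (-5.25 ± 0.31). Igf2bp2 and Igf2bp3 differed by -2.37 ± 0.11 and -2.63 ± 0.20 and were still present in the embryo (9.85 and 10.11). Igf2bp1, in a cluster shared with Mir3063, had 4.60, 4.66 and 4.66 against 12.52, 12.75 and 12.63 (-7.99 ± 0.08).

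Genes of DNA replication and mitosis were lower in the adult cells almost throughout. Of 32 replication genes 26 fell, and of 31 mitosis genes 27 fell, while none rose in either list (medians -2.16 and -2.11). Mcm2, part of the helicase that opens DNA, had 9.83, 10.94 and 10.69 in adult cells and 13.90, 13.82 and 13.97 in mESC. Bub1, a kinase of the spindle checkpoint, had 8.64, 8.17 and 8.52 against 11.93, 11.65 and 11.98. Aurka, another mitotic kinase, had 8.76, 8.68 and 8.77 against 12.33, 12.51 and 12.59. Adult and mESC arrays did not overlap for these genes, and the differences were -3.41 ± 0.26, -3.41 ± 0.14 and -3.74 ± 0.12 (largest adjusted p = 3.56e-05 in limma). Orc1, which marks origins, differed by -4.11 ± 0.10, Rrm2, which makes deoxynucleotides, by -3.54 ± 0.22, and Cdc20 and Plk1, which drive cells through mitosis, by -3.64 ± 0.15 and -2.63 ± 0.13. Not every gene of the cycle was lower. Mki67, the usual proliferation marker, was at 13.81, 14.43 and 14.54 in adult cells and 14.39, 14.40 and 13.97 in mESC (0.01 ± 0.20, adjusted p = 0.989), and Tk1 and Tyms were not called.

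Regulators of the cell cycle moved in both directions. Ccne1, the cyclin that starts replication, was at 6.46, 7.09 and 7.41 in adult cells and 12.75, 12.70 and 12.79 in mESC (-5.76 ± 0.24), and its transcription factor E2f1 differed by -1.96 ± 0.11. Rising genes were Ccnd2, a growth factor-responsive cyclin (2.49 ± 0.16), the brakes Rb1 and Rbl2 (2.57 ± 0.17 and 2.53 ± 0.18) and Cdkn1a (1.96 ± 0.50). Cdkn1a, the inhibitor p21, was at 15.37, 13.50 and 14.17 against 11.94, 12.33 and 12.88, highest in adult array 1, and was not called without mESC array 1 or 2. Together 5 of 29 rose and 6 fell (median -0.07). Among genes of the p53 response and apoptosis 6 of 21 rose and 8 fell. Trp53 had 11.82, 11.89 and 12.02 in adult cells and 13.62, 13.65 and 13.60 in mESC (-1.71 ± 0.08), with Bax, Pmaip1 and Fas also lower (-1.97 ± 0.12, -2.03 ± 0.24 and -4.87 ± 0.33). Bcl2, which protects from apoptosis, and Sesn3 rose by 2.49 ± 0.18 and 3.87 ± 0.36.

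Sugar uptake and glycolysis fell in 16 of 20 genes (median -1.90). The glucose transporter gene Slc2a3 had 6.93, 6.66 and 6.73 in adult cells and 14.68, 14.34 and 14.45 in mESC, and Slc2a1 had 9.89, 10.42 and 10.57 against 15.60, 15.55 and 15.75. Both lay far apart between the groups (-7.72 ± 0.11 and -5.34 ± 0.18, larger adjusted p = 6.21e-07 in limma), but Slc2a1 was high in the embryo (14.08), unlike Slc2a3 (7.25). Pgk1, Pfkp, Pfkl and Pkm of the pathway itself had differences of -3.85 ± 0.18, -3.45 ± 0.39, -2.73 ± 0.13 and -2.39 ± 0.19. For the respiratory chain the share that rose was near that of all named clusters. Of 28 nuclear-encoded genes 2 rose (7.1%, against 6.87% of all named clusters) and 1 fell (3.6%, against 10.3%). The list median was -0.23, and 2 genes fell without mESC array 2. Ppargc1a, a coactivator of mitochondrial genes, went from 4.08, 4.43 and 4.33 in mESC to 8.11, 10.29 and 10.11 in adult cells (5.22 ± 0.77, 5.92 without adult array 1), Ndufa1 of complex I rose by 1.13 ± 0.07, and Cox7a1 fell by 4.46 (SE 0.26).

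Serine, glycine, threonine and one-carbon metabolism fell in 13 of 16 genes (median -2.70). Tdh, the threonine dehydrogenase on which mouse pluripotent cells depend, had 4.25, 4.13 and 4.15 in adult cells and 10.45, 10.75 and 10.65 in mESC (-6.44 ± 0.10). Gldc, which splits glycine, had 4.52, 4.50 and 4.28 against 11.66, 11.77 and 11.77 (-7.30 ± 0.14). Both adult groups lay under the negative-control median. Amt, Psat1, Mthfd1l and Mthfd2 had differences of -5.44 ± 0.14, -4.54 ± 0.15, -4.20 ± 0.16 and -3.58 ± 0.18. Ribosome biogenesis fell in 25 of 26 genes, the largest share called among the 54 lists (median -2.36), with Rrs1 (6.78 and 7.40) the only gene not called. Nolc1, Heatr1 and Ddx21, of nucleolar rRNA processing, had differences of -3.56 ± 0.22, -3.55 ± 0.14 and -3.01 ± 0.22, and Polr1b, a subunit of the polymerase for rRNA, -2.73 ± 0.23.

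**Figure D3:**
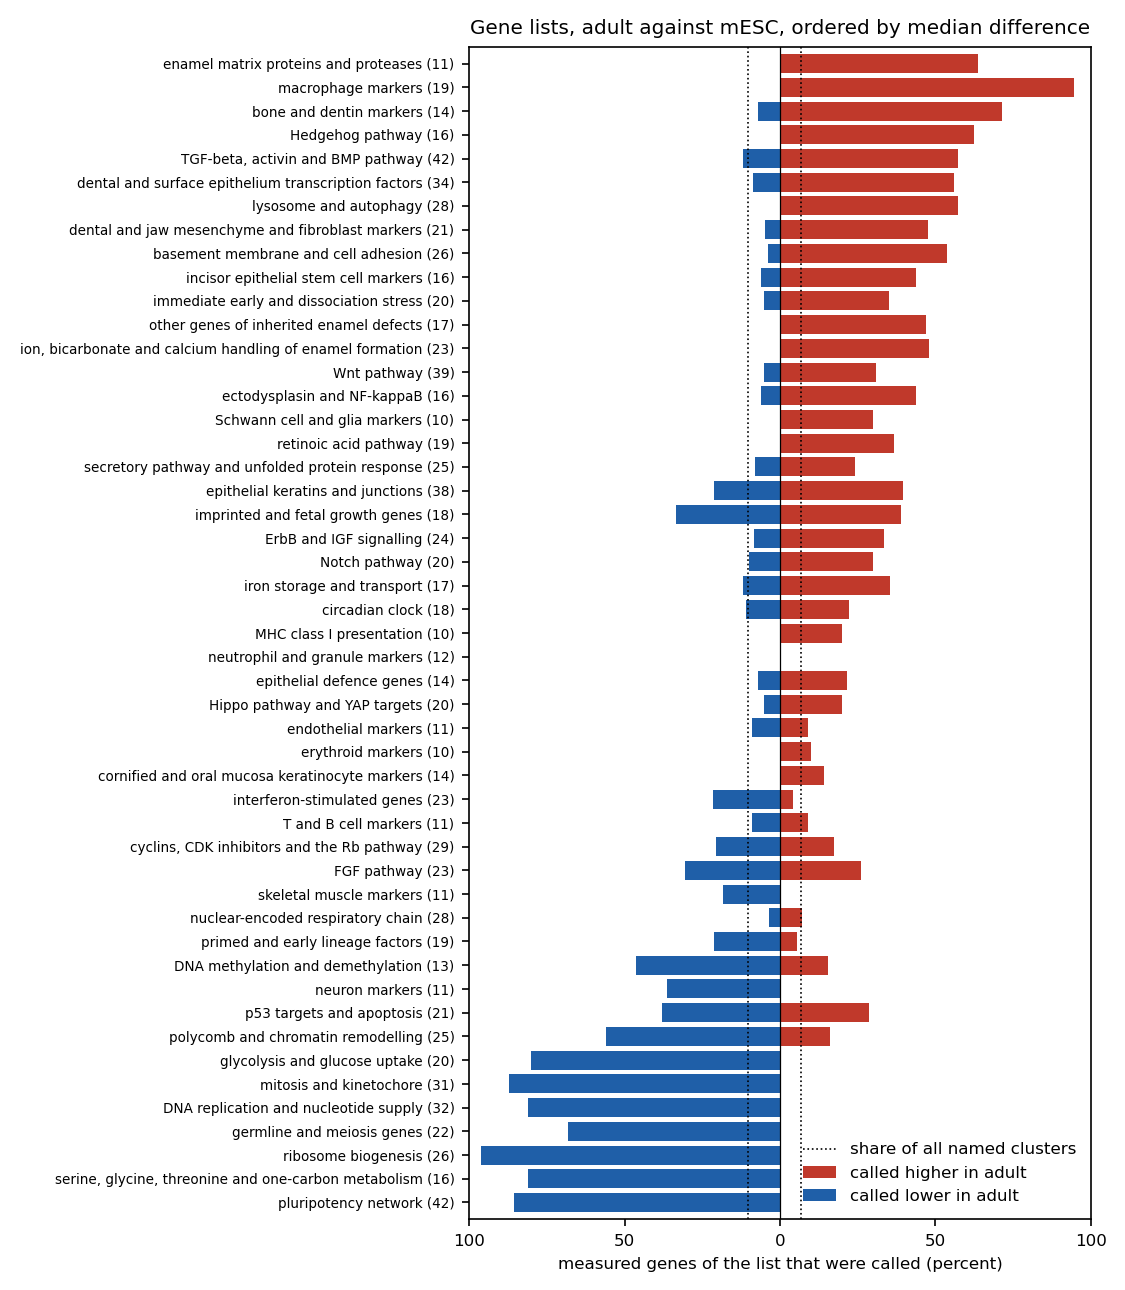
Share of the measured genes of each list that were called higher (red, right) or lower (blue, left) in adult cells than in mESC. The number of measured genes is in parentheses. Lists of at least 10 genes are ordered by their median difference, and the microRNA list (24 genes) is left out. Dotted lines mark the shares of all named clusters (6.87% and 10.3%); enamel, macrophage and bone lists stand at the top and ribosome, one-carbon and pluripotency lists at the bottom.

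Lysosomal and autophagy genes went up, in 16 of 28 measured cases and down in 0 (median 1.28). Ctsb, a cathepsin protease, had 16.21, 16.21 and 15.98 in adult cells and 12.10, 12.71 and 12.92 in mESC (3.56 ± 0.22). Lamp2 of the lysosome membrane rose by 2.46 ± 0.14 and Psap, an activator of lipid breakdown, by 2.30 ± 0.19. Ctss and Ctsh, also cathepsins, rose by 4.02 ± 0.26 and 3.76 ± 0.25, and Ctss is a macrophage marker too. Of 25 genes of the secretory route 6 rose and 2 fell, 11 rising after quantile normalization. Creb3l2 and Creb3l1, membrane-bound factors that expand secretion, rose by 5.62 ± 0.20 and 2.85 ± 0.34, and Xbp1 by 1.71 ± 0.12. Iron genes rose in 6 of 17 cases, led by the metal importer Slc39a8 (6.77 ± 0.39) and the iron carrier Trf (3.47 ± 0.37), while the receptor gene Tfrc fell by 2.21 (SE 0.19).

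Among signalling pathways, Hedgehog genes rose in 10 of 16 measured cases and fell in 0 (median 1.92). Shh, the ligand that the incisor epithelium makes, had 11.83, 12.66 and 12.89 in adult cells and 5.62, 5.36 and 6.06 in mESC. Ptch1, receptor and target of the pathway, had 14.73, 14.90 and 14.71 against 11.43, 11.35 and 11.12. Gli1, a transcription factor and target, had 10.40, 10.49 and 10.25 against 8.05, 7.98 and 7.87. The groups did not overlap (6.78 ± 0.38, 3.48 ± 0.18 and 2.41 ± 0.17, largest adjusted p = 2.47e-05 in limma). The co-receptor gene Boc rose by 3.05 ± 0.33, the transducer gene Smo by 2.28 ± 0.06 and Gli3 by 2.58 ± 0.11. Hhip, a decoy that traps the ligand, had 13.86, 9.78 and 8.73 in the adult arrays, highest in array 1, and 4.54, 5.34 and 4.72 in mESC (5.92 ± 1.14). Its difference was 4.39 without adult array 1 and 6.95 without adult array 3.

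The TGF-beta and BMP list rose in 24 of 42 genes and fell in 5 (median 1.51). Ligand genes that rose were Tgfb2 (6.49 ± 0.37), Bmp7 (5.14 ± 0.17), Tgfb3 (3.88 ± 0.56) and Tgfb1 (3.70 ± 0.37). Receptor genes that rose were Tgfbr2 (5.04 ± 0.23) and Bmpr2 (3.95 ± 0.14), Bambi, a pseudo-receptor that damps the signal, rose by 6.81 ± 0.24, and the target Id2 by 3.50 ± 0.25. The genes that fell were the Nodal branch of pluripotent cells, namely Gdf3, Lefty2, Lefty1 and Nodal (-4.24 ± 0.13, -2.91 ± 0.21, -2.27 ± 0.20 and -2.02 ± 0.13), together with the receptor gene Acvr2b (-1.80 ± 0.09). Tgfb3 was at 13.53, 11.48 and 11.44 in the adult arrays and so was highest in array 1. Without that array its difference was 3.19 and the list median 1.22.

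In the FGF pathway 3 receptor genes rose and ligands moved both ways. Fgf4, the ligand mESC make for themselves, had 4.37, 4.07 and 4.07 in adult cells and 10.56, 10.65 and 10.86 in mESC (-6.52 ± 0.14), and Fgf15 and Fgf17 also fell (-3.57 ± 0.36 and -2.99 ± 0.16). Fgf1 and Fgf9 rose by 1.06 ± 0.11 and 1.03 ± 0.19, calls lost without adult array 3 and, for Fgf9, also without mESC array 1 or 2. The receptor gene Fgfr2 had 9.96, 9.96 and 9.99 against 6.24, 6.39 and 6.53 (3.58 ± 0.25), and Fgfr1 rose by 3.13 ± 0.20 and Fgfr3 by 2.27 ± 0.17, while Fgfr4 lay under the negative-control median in both (3.81 and 3.96, -0.15 ± 0.07). Targets were mixed, with Spry2 and Etv5 lower (-1.92 ± 0.14 and -1.42 ± 0.22) and Dusp6 higher (1.24 ± 0.25), so that 6 of 23 genes rose and 7 fell. Ligands known from the dental mesenchyme, Fgf3 and Fgf10, lay under the negative-control median in adult cells (4.66 and 4.13).

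Wnt genes rose in 12 of 39 cases (median 0.67), and the largest rises were of secreted inhibitors. Wif1, which binds Wnt proteins, had 15.22, 13.56 and 13.25 in adult cells and 4.83, 4.77 and 4.89 in mESC (9.18 ± 0.44), highest in adult array 1 and with a difference of 8.58 without it. Sostdc1, an inhibitor of Wnt and BMP signals that restrains incisor growth, had 11.62, 12.51 and 12.36 against 5.6, 5.38 and 5.93 (6.53 ± 0.31). Fzd6, a receptor, rose by 2.60 ± 0.23, Wnt5a by 2.16 ± 0.21 and Tcf7l2 by 2.15 ± 0.14. Axin2, a general target of the pathway, was not called (6.87, 6.55 and 6.44 against 5.94, 6.11 and 6.05, 0.59 ± 0.14). The genes that fell were Lef1 and Rspo3 (-1.72 ± 0.41 and -1.07 ± 0.25), the latter not called without adult array 2 or mESC array 3.

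Notch, ectodysplasin and retinoic acid genes also gave more calls upward than downward. Notch2 rose by 4.19 ± 0.46, its ligand genes Jag1 and Jag2 by 2.68 ± 0.26 and 2.17 ± 0.26 and the target Hey1 by 3.39 ± 0.33, whereas Notch3 had a difference of -2.34 ± 0.10, and 6 of 20 Notch genes rose. Hes1, another target, was at 5.80 and 6.07. Edaradd, the adaptor of the ectodysplasin receptor that shapes teeth and hair, rose by 4.40 ± 0.36, the receptor gene Edar by 1.15 ± 0.21 (not called without adult array 1) and Tnfrsf19 by 6.51 ± 0.29, within 7 of 16. For retinoic acid, the degrading enzyme gene Cyp26c1 had 11.03, 12.36 and 12.39 in adult cells and 4.44, 4.27 and 4.26 in mESC (7.6 ± 0.40) and was still higher in the embryo (15.49). Cyp26a1 rose by 4.66 ± 0.22, Dhrs3 by 5.31 ± 0.28, Crabp2 by 3.22 ± 0.19 and the receptor gene Rarb by 2.16 ± 0.28, making 7 of 19 higher and 0 lower.

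**Figure D4:**
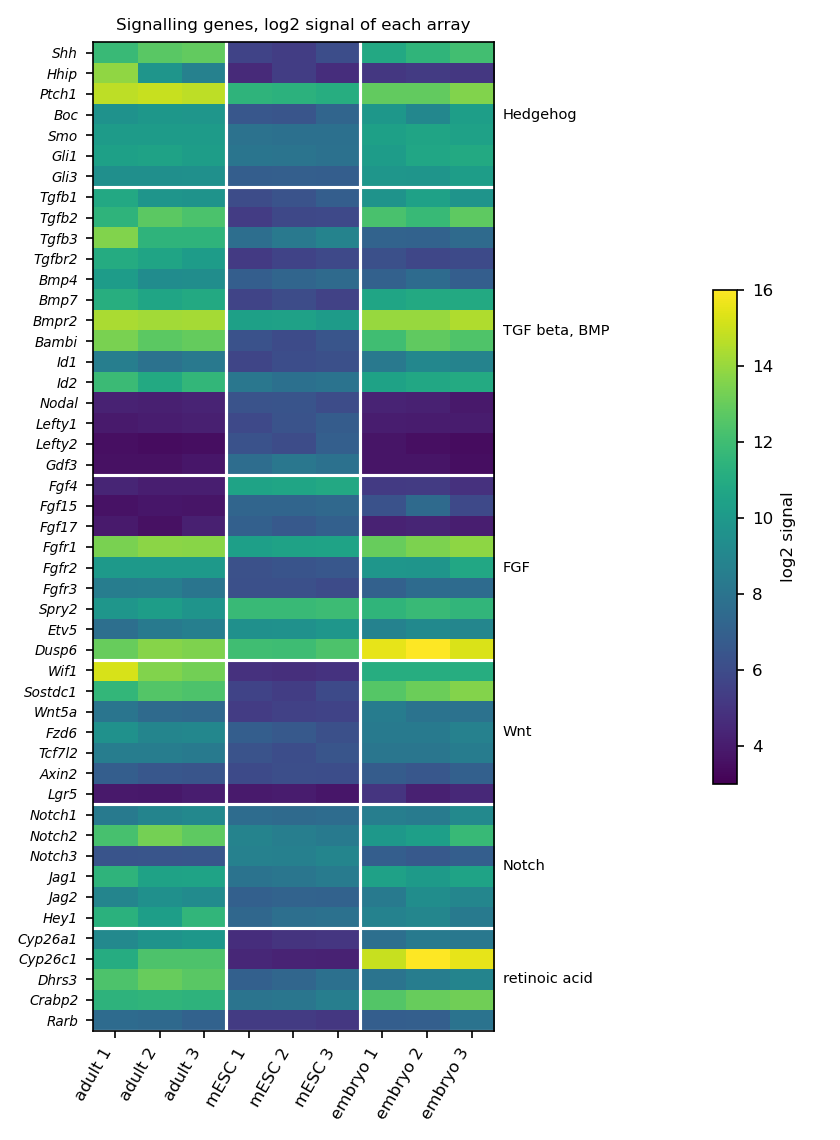
Log2 signal (colour) of signalling genes (rows, grouped by pathway) in each of the 9 arrays (columns). Hedgehog genes, Fgfr1, Fgfr2, Fgfr3, Bmpr2, Bambi and Notch2 were brighter in the adult arrays than in mESC, whereas Fgf4, Nodal, Lefty1, Lefty2 and Gdf3 were brighter in mESC.

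Insulin-like growth factor genes showed the binding proteins Igfbp5, Igfbp3 and Igfbp4 higher (9.83 ± 0.38, 4.71 ± 0.35 and 4.43 ± 0.24). Igfbp5 had 15.55, 16.51 and 15.95 in adult cells and 5.64, 6.25 and 6.64 in mESC, and all adult arrays lay above the mESC arrays. The receptor gene Igf1r rose by 2.70 ± 0.18 and the ligand gene Igf1 by 3.78 ± 0.49, and 8 of 24 ErbB and IGF genes rose. Erbb2 and Egfr, receptors of epidermal growth factors, rose by 2.51 ± 0.27 and 1.67 ± 0.38, and the ligand gene Hbegf fell by 1.84 (SE 0.28). In the Hippo pathway Amotl1, Vgll4, Axl and Lats1 rose (3.77 ± 0.19, 2.80 ± 0.21, 2.49 ± 0.35 and 2.36 ± 0.17), 4 of 20, while Yap1 was at 6.92 and 6.94.

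Imprinted and fetal growth genes moved in both directions, with 7 of 18 higher and 6 lower. Phlda2, which limits placental growth, had 3.89, 4.02 and 4.09 in adult cells and 13.98, 14.26 and 14.27 in mESC (-10.17 ± 0.21). Peg10, a gene derived from a retroelement, and Slc38a4, an amino acid transporter, differed by -6.35 ± 0.48 and -6.86 ± 0.69, and Grb10 by -3.04 ± 0.62. The Slc38a4 difference was -5.97 without adult array 1 and -7.53 without adult array 2. The growth regulators Plagl1 and Ndn rose by 3.01 ± 0.33 and 2.01 ± 0.16, and Igf2 by 2.23 ± 0.27, as did H19, whose cluster also carries Mir675 (14.15, 13.49 and 13.00 against 9.74, 10.22 and 11.10, 3.19 ± 0.38). On the sex chromosomes Xist, the RNA that silences an X chromosome in female cells, had 13.54, 13.26 and 13.85 in the pooled adult samples and 6.5, 5.88 and 6.11 in mESC (7.39 ± 0.27). Of Y-linked genes Kdm5d rose by 2.63 ± 0.20, and Ddx3y and Eif2s3y differed by 0.79 ± 0.24 and 0.81 ± 0.13, Ddx3y being called without adult array 1. The sexes pooled in the adult samples and the sex of the mESC are not given in the sources used here.

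Genes that respond within minutes to stimulation or to tissue dissociation were higher in 7 of 20 cases. Fos had 12.50, 11.50 and 11.58 in adult cells and 6.38, 6.89 and 7.03 in mESC (5.09 ± 1.08, adjusted p = 0.00722 in limma), and Jun, Fosb and Zfp36 rose by 4.83 ± 0.93, 5.21 ± 1.55 and 3.21 ± 0.41. The call of Fosb was lost on leaving out any 1 of the 6 arrays, with differences that stayed between 5.04 and 5.49 (adjusted p of 0.0639 to 0.0811 in limma). These fits kept the embryo arrays, whose spread enters the SE. In a fit of the adult and mESC arrays alone, 0 of the 263 called genes named here, Fosb included, lost the call. The authors' analysis of variance gave Fosb an adjusted p of 0.00338. The adult cells were dissociated and sorted, which the sources do not state for mESC, so handling and cell type cannot be told apart here. The count fell to 4 without adult array 2 or either mESC array 1 or 2, and to 3 with the day as a block or on the second day alone. Circadian clock genes rose in 4 of 18 cases (22.2%, against 6.87% of all named clusters), with Clock itself higher by 2.00 ± 0.13. Another 2 fell (11.1%, against 10.3%).

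Markers of other cell types that a dissected tooth can hold were also present in the adult samples, although these had been sorted for GFP, a gate meant to leave out cells without the Sox2-GFP signal. Macrophage markers rose in 18 of 19 measured cases (median 2.78). Csf1r, the growth factor receptor of these cells, had 11.16, 10.90 and 11.27 in adult cells and 4.71, 4.80 and 4.67 in mESC. Mrc1, a scavenger receptor, had 12.69, 13.00 and 12.61 against 5.06, 4.91 and 5.07, and C1qb, of complement, 10.59, 10.20 and 10.70 against 3.96, 4.0 and 3.97. All 3 were raised at similar levels in every adult array (6.38 ± 0.36, 7.75 ± 0.16 and 6.52 ± 0.14), and the summed linear signal of the list was 27958 to 30117 in adult arrays against 1579 to 2106 in mESC, where 9 of the 19 means lay under the negative-control median. Lyz2, lysozyme, was the brightest macrophage marker in mESC, at 9.13, 9.17 and 9.80 against 12.79, 13.19 and 13.25 in adult cells. The lysosomal genes Ctss and Ctsh rose in the same samples, and the part of macrophages in the lysosome, MHC and complement values was not tested. Of 10 MHC class I genes 2 rose and of 6 class II genes 1. B2m, the common chain of class I, rose by 3.45 ± 0.22, H2-DMb1 of class II by 2.62 ± 0.15, and Cd74, whose cluster also carries Mir5107, by 3.41 ± 0.27.

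Mesenchyme and bone genes rose too, unevenly. Col1a1, the main collagen of bone and connective tissue, had 15.89, 13.56 and 13.07 in adult cells and 7.93, 8.32 and 8.89 in mESC (5.79 ± 0.84). Dspp, of dentin, had 11.67, 9.26 and 10.01 against 4.11, 3.94 and 3.98 (6.3 ± 0.52), and Dmp1, of dentin and bone, 12.65, 5.92 and 6.63 against 3.87, 3.93 and 3.88 (4.51 ± 1.54, adjusted p = 0.0538 in limma). Adult array 1 was the highest adult array for each, with differences of 4.94 for Col1a1 and 5.63 for Dspp without it, and Dmp1 was called when any 1 adult array was left out (difference 2.38 without array 1). Lum and Dcn, small proteoglycans, rose by 6.80 ± 0.92 and 6.27 ± 0.61, and Runx2, the bone master factor, by 2.96 ± 0.49. Without adult array 1 Lum differed by 5.81 and Runx2 by 2.35, and without adult array 3 Lum by 7.48. Mesenchyme markers rose in 10 of 21 cases (median 1.25, 0.67 without adult array 1) and bone markers in 10 of 14 (median 2.27, 2.00 without it). The mesenchyme count was 6 without mESC array 1 or 2 or with the day as a block, and 5 on the second day alone. The summed linear signal of the mesenchyme list ran from 55398 to 194956 in adult arrays and from 55368 to 81593 in mESC, with Fn1 bright in both, and the part of such cells in the raised collagen, TGF-beta and IGF values was not tested.

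The mESC themselves were bright for some genes of these lists. Fn1, fibronectin, had 15.52, 15.72 and 16.05 in mESC and 14.64, 13.67 and 12.66 in adult cells (-2.11 ± 0.47). Spp1, osteopontin, had 12.42, 12.53 and 13.48 against 11.09, 9.43 and 9.98 (-2.64 ± 0.43), and Acta2, of smooth muscle, 10.79, 11.25 and 11.92 against 12.54, 12.17 and 11.16 (0.64 ± 0.42). Vim, vimentin, was nearly level (0.01 ± 0.38). Pecam1, an adhesion protein of endothelium and of mESC, had 9.05, 8.99 and 9.10 in mESC and 5.36, 5.51 and 5.51 in adult cells (-3.59 ± 0.08), with Kdr at 4.43 and 4.25. The neuronal genes Stmn2, Nefl and Elavl3 fell (-5.59 ± 0.10, -4.12 ± 0.26 and -2.76 ± 0.11), and so did Mylpf, a muscle myosin chain (-3.81 ± 0.12).

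Markers of further cell types were called in smaller numbers. Over all named clusters 6.87% rose and 10.3% fell. No neutrophil marker was called among 12. Osteoclast markers rose in 4 of 9 and Schwann cell markers in 3 of 10 (5 with the day as a block). T and B cell markers gave 1 rise and 1 fall among 11 (9.1% each), near the shares of all named clusters. Of these 11, 9 adult means lay under the negative-control median. Endothelial markers rose in 1 of 11 (9.1%, Cdh5, 1.64 ± 0.16), also near the share of all named clusters. Cornified keratinocyte markers rose in 2 of 14 (Dsg1a, 4.23 ± 0.68, 5.04 without adult array 1, and Lgals7, 1.69 ± 0.28), and Krt1, Krt10 and Krt13 were at 4.40, 5.14 and 4.61. Interferon-stimulated genes rose in 1 of 23 and fell in 5, the latter led by Bst2, a membrane tether that holds back viruses, with 13.09, 13.36 and 13.48 in mESC and 8.96, 8.52 and 8.13 in adult cells (-4.77 ± 0.20). Among epithelial defence genes Clu, a secreted chaperone, rose by 7.23 ± 0.12.

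**Figure D5:**
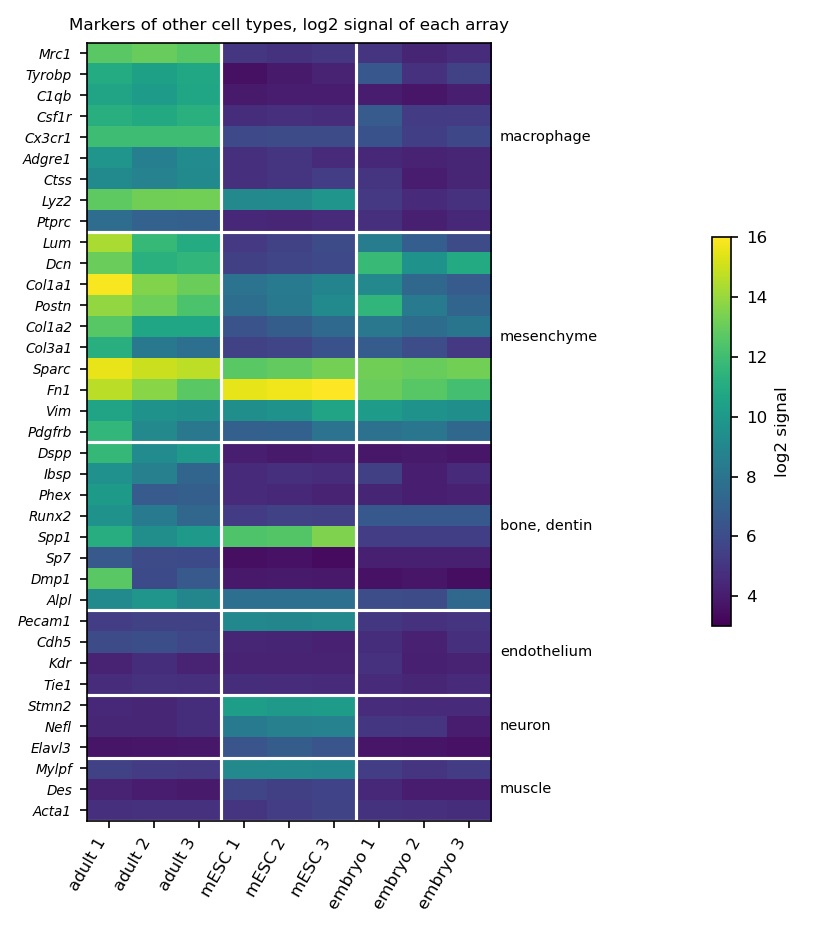
Log2 signal (colour) of marker genes of other cell types (rows) in each of the 9 arrays (columns). Macrophage genes were raised about equally in the 3 adult arrays, mesenchyme and bone genes were brightest in adult array 1, and Fn1, Spp1, Pecam1, Stmn2 and Mylpf were bright in mESC.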

How the data were processed

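Affymetrix Mouse Transcriptome Arrays, 1 per sample, measured the RNA of the 9 samples. The deposited values are log2 signals, which the authors background-corrected, normalized between arrays and summarised per transcript cluster with SST-RMA, per the file headers. Such normalization assumes that the arrays share a distribution of signals, so a general shift between cell types cannot be read. Affymetrix Expression Console, RMA and Transcriptome Analysis Console are named in the submitters' processing notes. The authors' deposited table of adult against mESC also holds bi-weight log2 means, a signed linear fold score and p-values of an analysis of variance, per the file headers. It gave the gene symbols, of which 1420 were updated through RefSeq, and its p-values served as an alternative only. No detection calls are used here. The sources used here do not name a genome build, and 99.07% of 30191 clusters compared overlapped their gene's position on GRCm38.p6.

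Limma 3.58.1 in R 4.3.3 was fitted to all 9 arrays with 3 group means (6 residual degrees of freedom), and p-values were adjusted by the Benjamini-Hochberg method over the 39601 named clusters. For a gene with several clusters the cluster brightest over the 9 arrays was used. Tested on simulated data for these 39601 clusters, the fit recovered 90% of changes of 1.5 and 98% of changes of 3 on the log2 scale, and 0.529% of its calls were false. In that simulation only 100 clusters changed at each size, the noise was independent and equal in all groups, and no day effect was added. The shares therefore do not give the error rate of the calls reported here. Tables and figures were made with the data.table package (1.17.8), Python 3.11.15, pandas 2.3.3 and matplotlib 3.10.9. The number of arrays, 3 per group, limits the precision.

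The members and the 54 gene lists, of which 1032 of 1111 genes were measured, were chosen with earlier results of these data known. Genes were named by a rule: Sox2, the 15 largest increases and 15 largest decreases among called clusters with 1 symbol and no overlap between groups (predicted, microRNA and receptor-segment names aside), and, in each list, at most 8 called genes by size of difference plus the genes that define it. Other genes named, among them those not called and the clusters with several symbols, were chosen after their values were seen. Alternatives were other scalings, filters, thresholds, blocks, the authors' test and leaving out each array. Adult and mESC arrays of the same replicate number did not deviate together (r = -0.01, 0.04 and -0.07), and they were treated as unpaired. An r near 0 over all named clusters cannot exclude a pairing that touches few genes.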

Additional observations from a re-analysis of the deposited data

How the results depend on the processing

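Counts of called clusters kept within 1.5 times of 2721 higher and 4073 lower under the other scalings, filters and blocks that were run, including the authors' deposited test (2087 and 3390). The fold threshold was the exception: at a difference of at least 2 there were 2319 calls, 1070 higher and 1249 lower, and by adjusted p alone 14425, of which 5238 were higher and 9187 lower. Leaving out 1 array gave 6571 to 6893 calls, 2570 to 2746 higher and 3831 to 4173 lower. Calls that were lower made up 59.9% as reported and 56.3% after median centring, which moved the median of all named clusters from -0.07 to -0.01. Sox2 was called in every setting, with differences from -4.66 to -3.79. With the replicate number as a block there were 6757 calls, 2700 higher and 4057 lower, the Sox2 difference stayed at -4.33, and 0 of the 263 called genes named here lost their call. The day read from the column names as a block left 2631 higher and 3981 lower. On the second day alone the lone adult array is assumed to vary like the other groups, and the Sox2 difference was -3.90.

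Of the called genes named here, 6 lost the call with the day as a block, among them Fos and Cdkn1a, 14 on the second day alone, among them Jun, Cdh2 and Axl, and 20 in the authors' deposited test, among them Hhip, Fn1, Spp1, Fam20a and Slc34a2. No named gene that was called in either fit reversed its direction under any of these settings. List medians moved by up to 1.56 on the second day alone (enamel matrix genes), and 2 of the 54 list medians changed sign. Genes near the negative-control signal, including 432 of those called higher and 573 of those called lower, are limited by signal over background.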

Other observations

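Gene families grouped by symbol, chosen after their values were seen, gave further patterns between adult cells and mESC. Over all named clusters 6.87% rose and 10.3% fell. Of 13 Platr genes, noncoding transcripts named for their association with pluripotency, 10 fell and none rose, with a median difference of -2.14. All 6 measured Zscan4 genes, which are expressed in a small share of mESC, fell (median -2.80), although these near-identical copies may share probes. Semaphorin genes, whose proteins guide axons and vessels, rose in 9 of 19 cases and fell in 0. Collagen genes rose in 10 of 40 and fell in 0, and S100 genes, encoding calcium-binding proteins, rose in 4 of 19. Ribosomal protein genes fell in 10 of 39 cases (median -0.41) and beta-tubulin genes in 4 of 10. Solute carriers moved both ways, with 56 higher and 42 lower of 372, the share that fell being near that of all named clusters. Olfactory receptor genes, which neither cell type is known for, gave 3 higher and 1 lower of 1209, and Hox genes 0 and 1 of 35.

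The deposited annotation sorts clusters by kind. Pseudogene clusters were called higher in 53 and lower in 671 of 2710 cases, though probes may not tell pseudogenes from their near-copy parent genes. Clusters annotated as ribosomal were called higher in 0 and lower in 38 of 155. Protein-coding clusters gave 740 higher and 1041 lower of 10561, near the shares of all named clusters (6.87% higher and 10.3% lower). Noncoding clusters gave 331 and 405 of 10532, below both shares. Clusters of the kind named Complex, the largest, gave 1597 and 1918 of 15619, above both.

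Several genes sit on clusters with more than 1 symbol and so belong to no list count. Ccnb1, the mitotic cyclin, whose cluster also carries Gm5593, had 9.38, 9.68 and 10.26 in adult cells and 13.79, 13.80 and 13.85 in mESC (-4.04 ± 0.20), and Top2a with Gm23451 differed by -2.56 ± 0.15. Pdgfra, a growth factor receptor gene of mesenchyme, shares its cluster with Mir7025 and had 9.93, 9.35 and 9.0 against 5.15, 5.15 and 5.18 (4.27 ± 0.20). Ctnnb1, which encodes beta-catenin and shares its cluster with Mir7090, rose by 1.24 ± 0.13.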
